A study of Homo sapiens with 8 samples.

Results

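The genes described here encode proteins of the mitochondrial ribosome, taken as the protein-coding rows whose symbols begin with MRPL or MRPS followed by a number. The rule found 78 of the 17912 genes measured, and all 78 were among the 15542 genes that passed the filter on low values (averaging 1 or more in the 8 libraries) and were tested. They were measured in the human cell line NKM-1, an established myeloid leukemia line of wildtype genotype, by RNA sequencing of total RNA after removal of ribosomal RNA. The 4 control libraries came from cells given DMSO, the solvent, for 48 h, and the 4 treated libraries from cells given SF153 at 30 uM for 48 h, with 2 libraries of each treatment in each of 2 batches. The series presents SF153 as an inhibitor of splicing factors that carry a U2AF homology motif (UHM). In library names the batch comes first, and SF153 2.1 denotes library 1 of SF153 in batch 2. All results are from 1 cell line, 1 dose and 1 time. The labels do not say that libraries of the same treatment and batch came from separate cultures. In their deposited names, such libraries share a leading number and carry the letter A or B. Hence the p-values cover only spread among the libraries at hand, and that spread may be technical.

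Mitochondria keep a small genome of their own and translate its mRNAs, which encode core subunits of the respiratory chain and ATP synthase, on a dedicated ribosome. Its RNA is made inside the organelle, whereas its proteins are encoded in the nucleus, translated in the cytosol, imported and assembled on that RNA. The large subunit holds the peptidyl transferase centre, the tunnel through which the new chain leaves and the stalk that recruits translation factors, and the small subunit binds mRNA and decodes it. Some of the proteins have bacterial counterparts and others were added in the mitochondrial lineage, and leukemia cells of the myeloid lineage are known to depend on mitochondrial translation.

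The values are treated as a TPM-type signal, a kind of value that relates a gene's reads to transcript length and library total. The file labels call them both CPM and TPM, and the authors' scaling between libraries is unknown. The read depth is also unknown, so no counting interval is given. The columns summed to 828381 in SF153 2.1, 835840 in SF153 2.2 and between 990815 and 1027119 elsewhere. The main comparison did not rescale them, and the part of these totals in the falls was not tested. The share of mitochondrially encoded genes was 16.8% in SF153 2.1 and SF153 2.2 and 9.17% to 9.92% elsewhere. The share of the small nuclear RNA RN7SK was 18.7% in SF153 1.1, 18.2% in SF153 1.2 and 11.4% to 13.9% elsewhere. Of 12 myeloid markers, 11 were measured, summing to between 1607 and 1842 in DMSO and between 1159 and 1413 in SF153. MPO (myeloperoxidase) was at a mean of 740.3 and 469.6 and the monocyte receptor CD14 at 0.68 and 0.39. Of the 10 tested, 5 fell and 2 rose, CD33 from 74.2 to 98.5 and ITGAM from 31.2 to 41.9. Of 7 lymphoid markers 2 were measured, CD79A, which fell from a mean of 27.1 to 6.72, and NKG7, which was at 106.7 and 74.99 and was not called. The endothelial marker PECAM1, which myeloid cells also carry, rose from 12.5 to 19.3. None of 6 erythroid and megakaryocyte markers was analysed here. The part of these markers in the members' falls was not tested. In bulk RNA of this kind, fewer cells and less RNA per cell cannot be told apart.

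Most mitochondrial ribosomal protein mRNAs were lower after SF153. By limma on log2(signal + 1), with a gene called at a Benjamini-Hochberg adjusted p under 0.05 over all genes tested, 66 of the 78 (84.6%) fell, against 24.3% of all 15542 genes tested. None was called higher, against 13.0% of all genes, and at an unadjusted p under 0.05 none was higher either. The fall was at least 2-fold in 32 members, against 7.78% of all genes, between 1.5-fold and 2-fold in 26, and smaller than 1.5-fold in 8. The median log2 difference (SF153 minus DMSO) was -0.92 over the members and -0.03 over all genes tested, and the median standard error of a member was 0.16. Every SF153 library lay below every DMSO library for 61 members, against 23.6% of all genes.

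The summed signal of the 78 genes was 1980.7 ± 113.2 in DMSO (mean ± SD, n = 4), with single libraries between 1873 and 2118. In SF153 it was 1111 ± 111, between 1015 and 1216, or 56.1% of the DMSO mean. The groups did not overlap. Within DMSO the mean signal of the members spanned 17.7-fold, from 5.11 for MRPL50 to 90.5 for MRPL12, with a median over members of 22.6. Within SF153 it spanned 25.4-fold, from 2.60 for MRPL39 to 66.0 for MRPS25, with a median of 10.6, so the levels of the members lay further apart than in DMSO. The size of the difference followed the DMSO level little across the 78 genes (Spearman rho = 0.02, a description across genes, which are not independent).

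**Figure D1:**
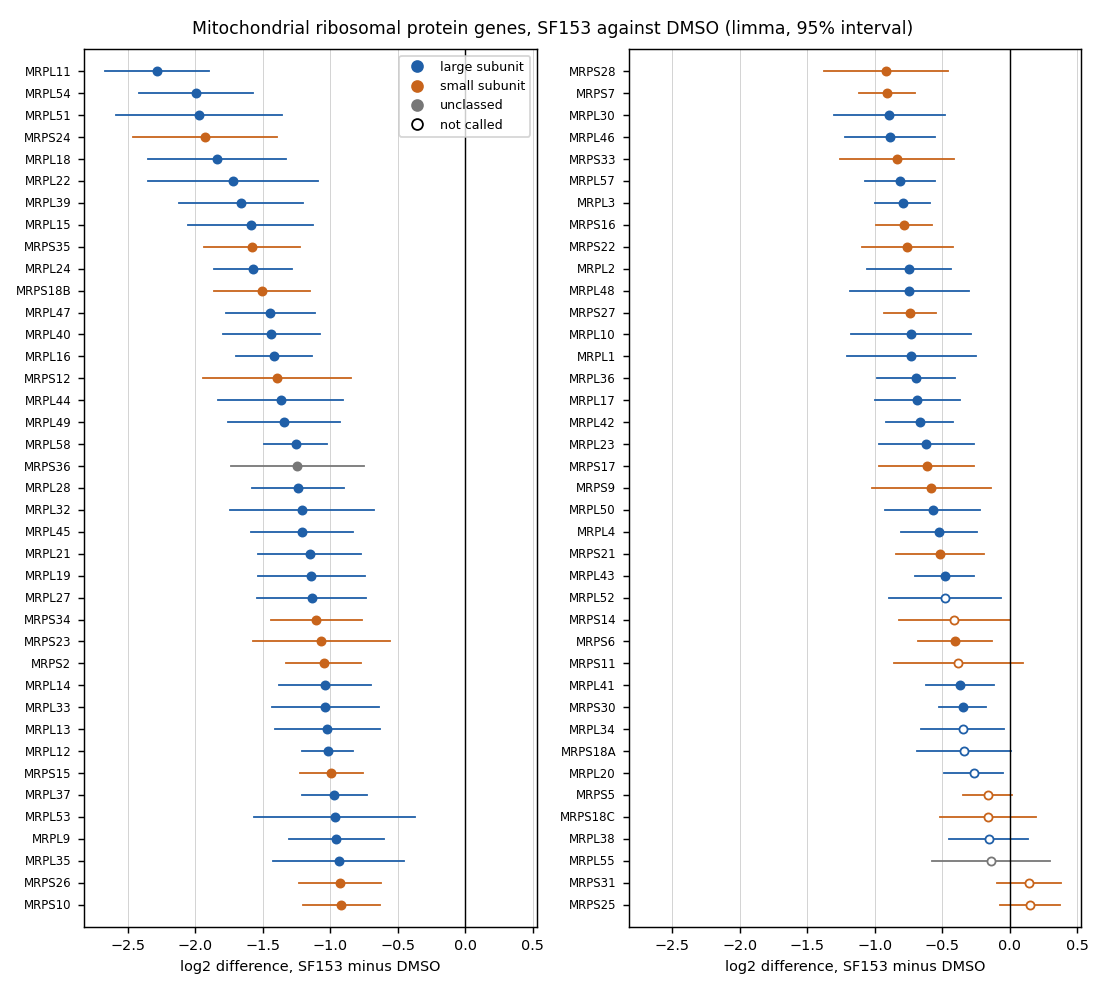
Log2 difference between SF153 and DMSO (horizontal axis) for each of the 78 mitochondrial ribosomal protein genes, ordered from the most negative at top left to the highest at bottom right. Points are limma estimates, lines are 95% intervals, colours mark the subunit, and open points are the 12 genes with an adjusted p of at least 0.05. All but 2 estimates lie below 0.

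**Figure D2:**
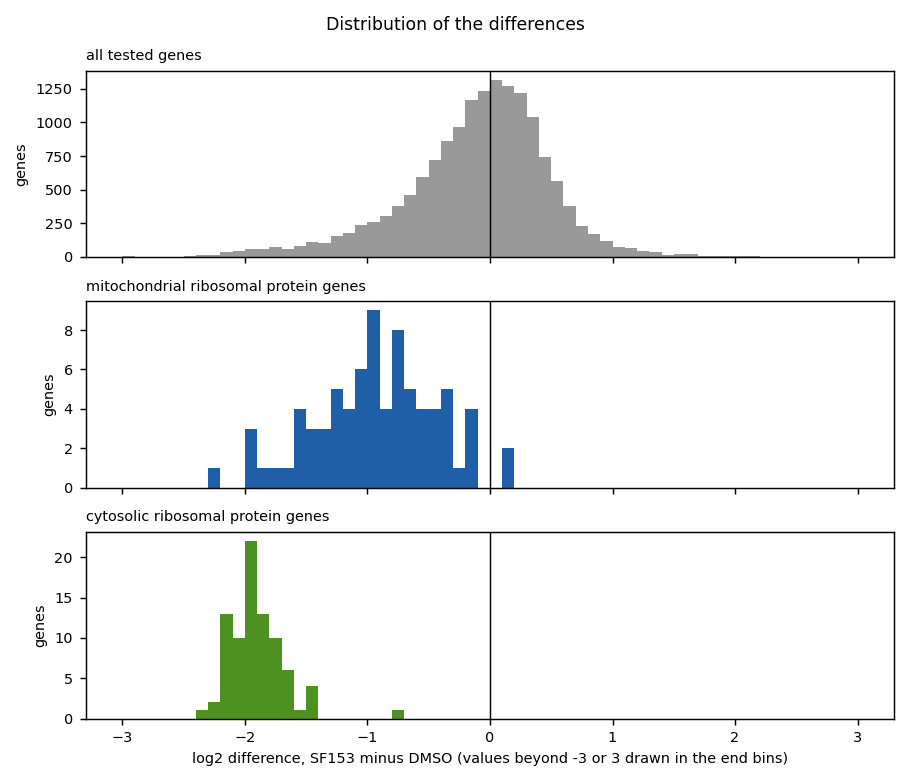
Number of genes (vertical axes) by log2 difference between SF153 and DMSO in steps of 0.1, for all 15542 tested genes, the 78 mitochondrial ribosomal protein genes and the 83 tested cytosolic ribosomal protein genes. The mitochondrial genes lie between the distribution of all genes, with a median of -0.03, and the cytosolic genes, with a median of -1.91.

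The largest fall was that of MRPL11 (ENSG00000174547.13), on chromosome 11 at 66435075 to 66466738 in GENCODE release 29 on GRCh38, which encodes uL11m at the base of the stalk of the large subunit. Its signal was 26.9, 29.3, 25.7 and 21.6 in DMSO libraries 1.1, 1.2, 2.1 and 2.2 and 3.67, 6.51, 4.73 and 3.51 in the SF153 libraries in the same order. All 4 treated libraries were far under the lowest control. The log2 difference was -2.28 ± 0.17 (SE, limma adjusted p = 2.96e-05), and the SF153 mean was 17.8% of the DMSO mean.

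MRPL54 encodes mL54, a mitochondrion-specific protein near the same stalk. It measured 27.8, 25.7, 23.6 and 19.4 in DMSO and 6.18, 7.25, 4.58 and 3.66 in SF153. The treated libraries were all lower than the controls, with a log2 difference of -1.99 ± 0.19 (limma adjusted p = 7.05e-05). MRPL12, the most abundant member, encodes the stalk protein that contacts translation factors. It measured 89.5, 96.9, 93.6 and 82.2 in DMSO and 49.8, 43.8, 40.5 and 42.9 in SF153, again without overlap, at a log2 difference of -1.02 ± 0.09 (limma adjusted p = 4.26e-05). The other stalk proteins fell as well, MRPL53 with a log2 difference of -0.97 ± 0.26 and MRPL10 with -0.73 ± 0.20. The 2 groups overlapped for MRPL10. The stalk, tunnel and other positional groups were drawn up after the values were known and are used only to order the description.

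Around the exit tunnel of the large subunit, MRPL22 encodes uL22m, which lines the tunnel. Its signal was 24.9, 22.4, 17.5 and 13.7 in DMSO and 6.70, 8.46, 3.39 and 3.37 in SF153. The libraries of batch 2 were the lower ones in both groups, and the groups stayed apart (log2 difference -1.72 ± 0.28, limma adjusted p = 0.00116). MRPL24, which encodes uL24m beside the tunnel exit, measured 38.2, 38.4, 28.6 and 33.4 in DMSO and 10.9, 12.9, 11.0 and 9.15 in SF153, a difference of -1.57 ± 0.13 (limma adjusted p = 3.98e-05). Of the other proteins known from this region, MRPL47 (-1.44), MRPL45 (-1.21), which attaches the ribosome to the inner membrane, MRPL17 (-0.68) and MRPL23 (-0.62) fell.

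MRPL18 encodes uL18m of the central protuberance, where the subunits face the tRNAs. It measured 26.9, 25.9, 26.6 and 22.1 in DMSO and 11.0, 6.60, 5.005 and 4.29 in SF153. Its highest treated library was SF153 1.1, still under every control (log2 difference -1.84 ± 0.23, limma adjusted p = 0.000245). Other central protuberance proteins were spread widely, from MRPL40 (-1.44) and MRPL58 (-1.25), a peptidyl-tRNA hydrolase, over MRPL46 (-0.89) and MRPL48 (-0.75) to MRPL38, the only one of these 5 that was not called. Of the proteins nearest the peptidyl transferase centre, MRPL16 (-1.42), MRPL27 (-1.14) and MRPL3 (-0.79) fell.

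Among further large subunit members, MRPL51 encodes the mitochondrion-specific mL51. It measured 29.6, 25.6, 23.4 and 17.1 in DMSO and 7.46, 7.94, 2.88 and 4.21 in SF153, with no overlap (log2 difference -1.97 ± 0.27, limma adjusted p = 0.000481). MRPL39, which resembles a threonyl-tRNA synthetase, was at 11.8, 7.94, 10.2 and 10.8 in DMSO and at 3.22, 2.50, 1.43 and 3.25 in SF153 (-1.66 ± 0.21, limma adjusted p = 0.000246). MRPL15 was at 49.97, 45.3, 38.8 and 37.7 in DMSO and at 19.1, 12.8, 15.7 and 8.59 in SF153 (-1.59 ± 0.21, limma adjusted p = 0.000326). Each of these 3 genes thus had its 4 treated libraries below all controls.

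In the small subunit the largest fall was that of MRPS24, on chromosome 7, which encodes uS3m at the site where mRNA enters. Its signal was 28.3, 33.7, 39.4 and 31.2 in DMSO and 11.3, 10.6, 4.52 and 7.03 in SF153. The 2 treated libraries of batch 2 were lower than those of batch 1, and the log2 difference was -1.93 ± 0.24 overall (limma adjusted p = 0.000244), -1.42 in batch 1 and -2.44 in batch 2. MRPS35, a mitochondrion-specific protein of the small subunit, measured 13.3, 17.9, 13.1 and 15.4 in DMSO and 4.89, 5.36, 3.76 and 3.35 in SF153 (-1.58 ± 0.16, limma adjusted p = 8.98e-05), without overlap. MRPS12, which encodes the decoding protein uS12m, fell with a difference of -1.39 ± 0.25, and MRPS34 (-1.10), MRPS23 (-1.06) and MRPS2 (-1.05) fell as well.

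**Figure D3:**
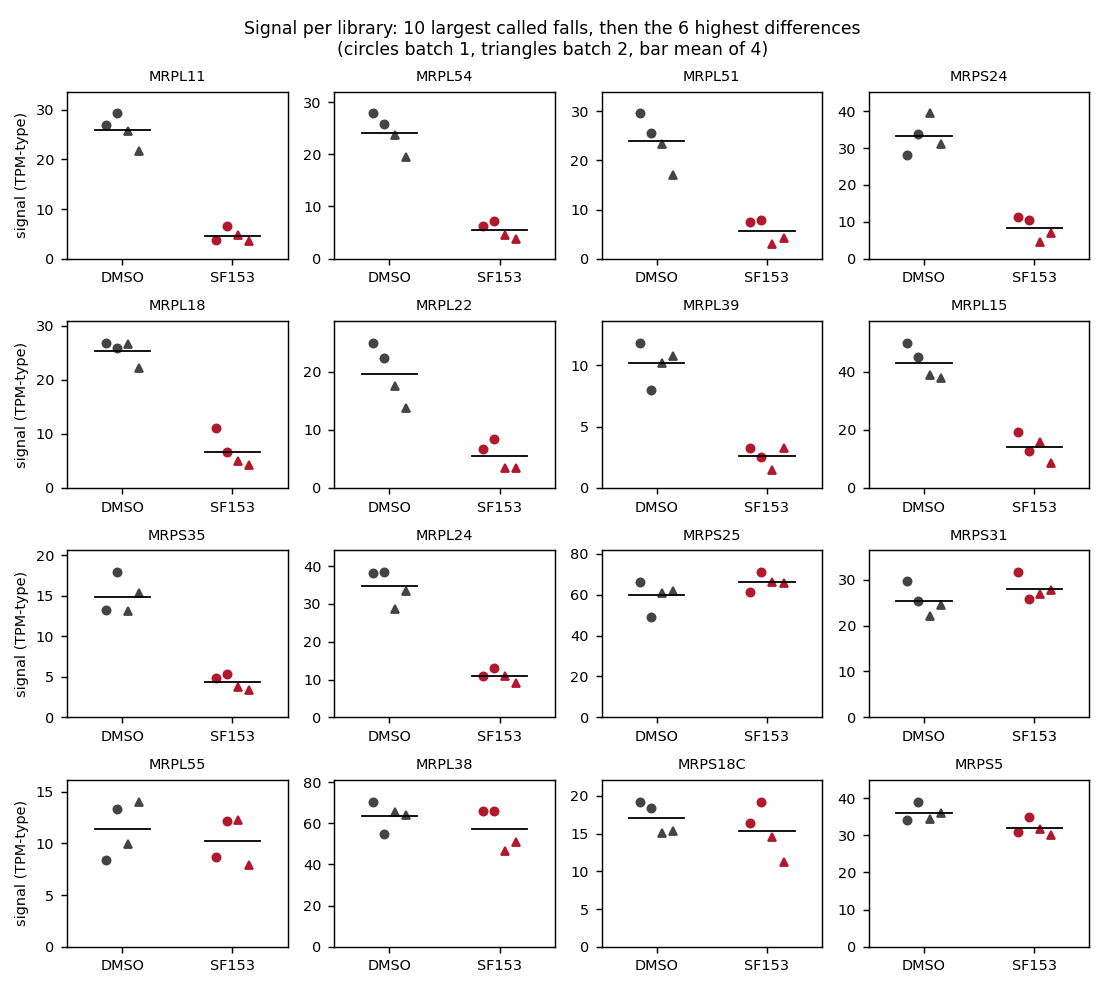
Signal (vertical axes, TPM-type, from 0) in each library for the 10 called members with the most negative difference and, from MRPS25 on, the 6 members with the highest difference. Circles are batch 1, triangles batch 2 and bars the mean of 4 libraries. In the first 10 panels the treated libraries lie below all controls, and in the last 6 the groups overlap.

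Only MRPS25 and MRPS31 had estimates above 0, and neither was called in the comparison of all libraries. MRPS25, on chromosome 3 at 15042460 to 15065335, encodes mS25 and was the most abundant member after treatment. It measured 66.3, 49.2, 60.95 and 61.8 in DMSO and 61.1, 70.9, 66.2 and 65.7 in SF153, and the groups overlapped (log2 difference 0.15 ± 0.10, limma adjusted p = 0.261, 95% interval from -0.07 to 0.37). MRPS31, which encodes mS31, measured 29.6, 25.3, 22.1 and 24.5 in DMSO and 31.6, 25.9, 26.8 and 27.8 in SF153, overlapping as well (0.14 ± 0.11, limma adjusted p = 0.33, interval from -0.10 to 0.38). Both lie above 0 in each batch.

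A further 10 members were not called. MRPS5, which encodes uS5m beside the mRNA entry, was at 34.0, 39.1, 34.5 and 36.1 in DMSO and at 31.0, 34.9, 31.8 and 30.1 in SF153, with overlap (log2 difference -0.16 ± 0.08, limma adjusted p = 0.141). MRPS18C was at 19.2, 18.3, 15.1 and 15.3 in DMSO and at 16.4, 19.1, 14.5 and 11.2 in SF153 (-0.16 ± 0.16, limma adjusted p = 0.461). MRPL38, a mitochondrion-specific protein of the central protuberance and the second most abundant member in DMSO, was at 70.5, 54.6, 65.5 and 63.9 in DMSO. In SF153 it was at 66.0 and 66.1 in batch 1 and at 46.7 and 50.8 in batch 2, and its difference was 0.09 in batch 1 and -0.40 in batch 2 (-0.16 ± 0.13 over all libraries, limma adjusted p = 0.38).

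MRPL55 was at 8.40, 13.3, 9.94 and 14.0 in DMSO and at 8.67, 12.1, 12.3 and 7.91 in SF153 (-0.14 ± 0.19, limma adjusted p = 0.609), and libraries of the same treatment and batch differed as much as the treatments. MRPL20, which encodes bL20m, was at 56.5, 48.0, 49.8 and 62.9 in DMSO and at 45.7, 45.8, 41.0 and 46.3 in SF153. Its groups did not overlap, but the difference of -0.27 ± 0.10 was not called (limma adjusted p = 0.0525). The remaining uncalled members, MRPL52, MRPS14, MRPS11, MRPL34 and MRPS18A, had estimates between -0.48 and -0.34 and overlapping groups.

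The smallest called falls belonged to MRPS30 and MRPL41. MRPS30, which despite its symbol encodes a protein of the large subunit, had a difference of -0.35 ± 0.08 (limma adjusted p = 0.00613). Its call, like that of MRPL41, was lost under alternatives described below. The MRPS30 difference was -0.15 after quantile normalization, -0.18 with the length trend removed and -0.02 without mitochondrially encoded and small RNA genes. MRPL41 was at 59.9, 50.2, 61.5 and 52.3 in DMSO and at 51.5, 39.02, 38.1 and 44.7 in SF153, and SF153 1.1 lay between the controls. Its difference of -0.37 ± 0.11 was called (limma adjusted p = 0.0284) but was lost without DMSO 1.1, DMSO 2.1, SF153 1.2 or SF153 2.1. Calls of MRPS9, MRPS6, MRPL1, MRPS21 and MRPL50 were likewise lost on leaving out at least 1 library, and 60 of the 66 kept their call in each of the 8 such fits. The matching share over all called genes is not given here.

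By subunit, 45 of 50 large subunit members fell, 24 of them at least 2-fold, with a median log2 difference of -0.97. Of 26 small subunit members, 20 fell, 7 of them at least 2-fold, with a median of -0.81. The difference between the subunits was not tested. Origin separated the members little: 39 of 45 proteins with a bacterial counterpart fell (median -0.92) and 26 of 31 mitochondrion-specific proteins (median -0.89). Within the large subunit the medians were -1.02 over 29 bacterial-type members, of which 27 fell, and -0.89 over 21 mitochondrion-specific members, of which 18 fell. Within the small subunit they were -0.70 over 16 bacterial-type members, of which 12 fell, and -0.88 over 10 mitochondrion-specific members, of which 8 fell. MRPL55, which was not called, and MRPS36 were left out of the classes, so the counts by subunit and origin do not cover them. MRPS36 fell, with a difference of -1.24 ± 0.22 (limma adjusted p = 0.00184). It is now known as KGD4, a component of the alpha-ketoglutarate dehydrogenase complex.

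The 3 paralogs of bacterial S18 sit in different places and measured differently. MRPS18B, a small subunit protein, fell from 31.4 ± 2.04 to 10.6 ± 2.67 (SD, n = 4), a log2 difference of -1.50 ± 0.16 (limma adjusted p = 0.000111). MRPS18A, a large subunit protein, was at 15.1 ± 2.44 and 11.8 ± 2.31 (-0.34 ± 0.16, limma adjusted p = 0.119), and MRPS18C, the S18 of the small subunit, at 17.0 ± 2.09 and 15.3 ± 3.35. Differences between the paralogs were not tested.

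Several members have pseudogenes, further copies of their sequence in the genome whose reads resemble those of the parent, so that the split of reads between parent and copy is uncertain. MRPS18BP2 rose from 8.21 to 16.8 (log2 difference 0.93, limma adjusted p = 0.00121) while MRPS18B fell. Summed with its copies, MRPS18B was at 39.6 and 27.5, a log2 difference of -0.53 in place of -1.50. MRPL45 with MRPL45P2 gave -0.23 in place of -1.21, and MRPS36 with its copies -0.11 in place of -1.24. Sums with copies gave -0.44 for MRPL42, -0.61 for MRPL35, -0.71 for MRPL3, -0.74 for MRPL37 and -0.84 for MRPS10, and 0.04 for MRPS31 and -0.14 for MRPS18C. These sums were not tested, and the falls of MRPS18B, MRPL45 and MRPS36 are uncertain for this reason.

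**Figure D4:**
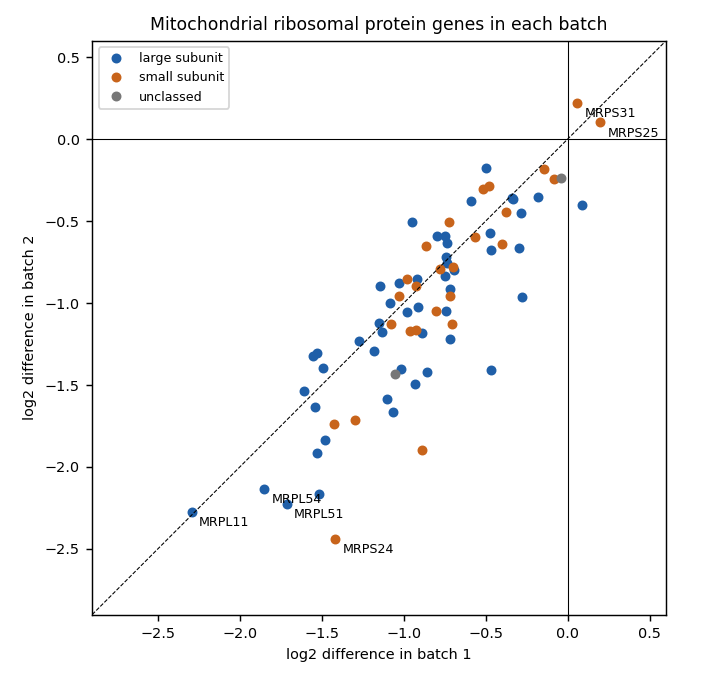
Log2 difference between SF153 and DMSO in batch 1 (horizontal axis) and batch 2 (vertical axis), 2 libraries against 2 in each, for the 78 mitochondrial ribosomal protein genes. Colours mark the subunit and the dashed line marks equal differences. Of the 78 genes, 75 lie below 0 in both batches.

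The batches gave like orders of the members. Differences were below 0 in both batches for 75 of 78 genes, the exceptions being MRPS25, MRPS31 and MRPL38. The median was -0.86 in batch 1 and -0.96 in batch 2, and 52 members were more negative in batch 2. The 2 SF153 columns of batch 2 also had the lowest totals, and the part of these totals was not tested. Across the 78 genes the differences of the batches had a Spearman rho of 0.82 and a Pearson r of 0.85, over genes measured in the same libraries. With 2 libraries per treatment, limma called 51 members lower in batch 1, against 14.6% of all genes, and 50 in batch 2, against 15.8%. With the libraries of a treatment and batch averaged, 54 were called lower, against 16.5%. The limma adjusted p of MRPL11 was then 0.0100, in place of 2.96e-05.

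The count depended on how libraries were scaled to each other. Leaving out mitochondrially encoded and small RNA genes and rescaling each library moved the median of all genes by 0.33. It left 52 members lower, against 13.8% of all genes, with a median of -0.62, and it called MRPS25 and MRPS31 higher, 2 members, against 34.9% of all genes. Quantile normalization moved the median of all genes by 0.16 and left 57 members lower, against 18.2%, and the same 2 members higher, against 20.8%. Under these scalings the estimates of MRPS5, MRPS18C, MRPL38 and MRPL55 turned above 0, so these genes and falls smaller than the shifts have no fixed direction. The 42 members called lower in the main comparison and under all 23 alternatives included the 10 with the most negative differences. The share of all genes called lower in every one of these fits is not given here.

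Transcript length moved with the difference across the transcriptome and is given here because the members are short. Their annotated transcripts had a median length of 1459 bases, from 518 for MRPL33 to 15582 for MRPL42, against 3048 for the 10966 other tested coding genes. The Spearman rho of difference and length was 0.22 across those genes and 0.20 across the members. Among transcripts of up to 800 bases, 7 of 8 members fell (median -1.09), and 64.9% of the other coding genes were lower (median -1.05). Between 801 and 1200 bases, 18 of 21 members fell (median -1.02), and 56.1% of the others (median -0.56). Between 1201 and 2000 bases it was 28 of 33 members (median -0.76) and 39.6% of the others (median -0.26), and from 2001 bases on 13 of 16 members (median -0.83) and 27.2% of the others (median -0.09).

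Among the shortest transcripts the medians were thus close, while the share called lower was higher in the members, and beyond 800 bases the members had the lower median in each group of lengths. These differences were not tested. With the trend of difference on length removed from every gene, 60 members were called lower, against 20.7% of all genes, and 1, MRPS31, higher, against 18.5%. Why length moved with the difference was not tested.

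**Figure D5:**
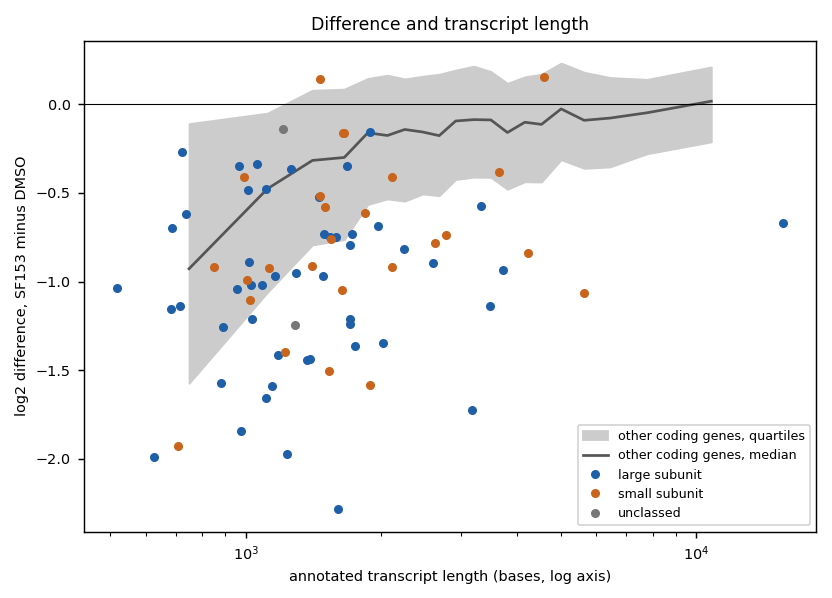
Log2 difference between SF153 and DMSO (vertical axis) by annotated transcript length in bases (log horizontal axis). Points are the 78 mitochondrial ribosomal protein genes, coloured by subunit, and the line and band are the median and quartiles of the other tested coding genes in groups of like length. Other coding genes approach 0 as length grows, whereas 13 of the 16 members beyond 2000 bases were called lower.

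Sequences upstream of the genes are shown for members at both ends of the range, since promoters of mitochondrial ribosomal protein genes are known for sites of the activators NRF1 and of ETS-family factors (NRF2, also called GABP). RefSeq windows on GRCh38.p14, from 250 bases before to 50 after a gene's RefSeq start, were found for 69 of the 78 members and for 27305 genes in all. For the motifs, all genes means these 27305, which were not limited to genes measured or tested here. On both strands, the ETS letters CCGGAAG were present in 30 of the 69 (43.5%), against 12.2% of all genes, and the YY1 letters AAGATGGCG in 13 (18.8%), against 2.14%. The NRF1 letters GCGCNNGCG were in 18 (26.1%), against 19.6%, the SP letters CCGCCC in 42 (60.9%), against 48.3%, and the NFY letters CCAAT in 23 (33.3%), against 39.7%. At least 1 of the ETS, YY1 and NRF1 motifs was in 50 members (72.5%), against 28.9%. The ETS letters end with the bases that the YY1 letters begin with, so a single stretch can hold both, and the NRF1 letters can match both strands at overlapping places. A match describes letters in the window and is not a bound site.

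The 150 bases before the start are printed here, 5′ to 3′ on the strand of the gene, with NRF1, ETS and YY1 matches in capitals, for 4 members among the largest falls. MRPL11 (chr11:66438849-66438998, minus strand) holds none of these matches, MRPL54 (chr19:3762532-3762681, plus strand) and MRPL51 (chr12:6493263-6493412, minus strand) hold ETS matches, and MRPL22 (chr5:154940923-154941072, plus strand) holds an NRF1 match, and a YY1 match elsewhere in its window.
MRPL11: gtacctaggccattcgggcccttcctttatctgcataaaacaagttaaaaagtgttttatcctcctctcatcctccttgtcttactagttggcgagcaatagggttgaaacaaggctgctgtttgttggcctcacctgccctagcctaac
MRPL54: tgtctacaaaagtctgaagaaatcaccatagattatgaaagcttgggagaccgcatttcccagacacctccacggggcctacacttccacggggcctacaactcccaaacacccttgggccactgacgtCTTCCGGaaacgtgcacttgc
MRPL51: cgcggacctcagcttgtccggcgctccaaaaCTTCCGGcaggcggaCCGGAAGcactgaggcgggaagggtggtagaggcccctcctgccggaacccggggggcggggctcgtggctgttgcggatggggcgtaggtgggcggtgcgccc
MRPL22: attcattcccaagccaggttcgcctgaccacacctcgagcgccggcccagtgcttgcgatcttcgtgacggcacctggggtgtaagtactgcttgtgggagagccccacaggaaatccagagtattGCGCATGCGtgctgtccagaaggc

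The same stretch follows for 3 members that were not called. MRPS31 (chr13:40771191-40771340, minus strand) holds an ETS match, MRPS18C (chr4:83455908-83456057, plus strand) an NRF1 match and, elsewhere in its window, an ETS match, and MRPS25 (chr3:15065316-15065465, minus strand) none. Of the other uncalled members, MRPS14, MRPS5, MRPL38 and MRPL55 hold none in this stretch, and MRPL52, MRPS11, MRPL34, MRPS18A and MRPL20 hold some.
MRPS31: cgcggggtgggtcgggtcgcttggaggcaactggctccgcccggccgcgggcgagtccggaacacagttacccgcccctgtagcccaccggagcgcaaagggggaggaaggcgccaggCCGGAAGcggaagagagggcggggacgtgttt
MRPS18C: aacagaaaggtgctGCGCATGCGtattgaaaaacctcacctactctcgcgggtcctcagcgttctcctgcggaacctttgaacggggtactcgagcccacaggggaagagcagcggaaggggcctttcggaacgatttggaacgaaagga
MRPS25: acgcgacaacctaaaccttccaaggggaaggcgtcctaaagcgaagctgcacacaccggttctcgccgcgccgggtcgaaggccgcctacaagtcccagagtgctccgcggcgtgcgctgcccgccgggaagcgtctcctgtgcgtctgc

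The same kinds of match thus stood before members that fell and members that did not pass the test. Of the 57 fallen members with a window, 24 held the ETS letters, 13 the NRF1 letters and 10 the YY1 letters. Of the 12 uncalled members, 6, 5 and 3 did. The median log2 difference was -0.92 with and -0.89 without an ETS match, -0.69 with and -0.97 without an NRF1 match, and -0.70 with and -0.94 without a YY1 match. These differences were not tested.

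MRPL46 and MRPS11 are shown because they are neighbours that start 320 bases apart on chromosome 15 and run in opposite directions. MRPL46, of the large subunit, fell from 12.8 ± 2.08 to 6.44 ± 1.19 (SD, n = 4), a log2 difference of -0.89 ± 0.15 (limma adjusted p = 0.00143). MRPS11, of the small subunit, was at 21.0 ± 5.57 and 15.7 ± 3.70 (-0.38 ± 0.21, limma adjusted p = 0.191). The difference between them was not tested. The 150 bases before each RefSeq start, chr15:88467389-88467538 on the minus strand and chr15:88467558-88467707 on the plus strand, lie side by side. By the GENCODE positions, the MRPS11 stretch lies inside that gene. The MRPS11 stretch holds 2 overlapping NRF1 matches, and MRPL46 has a YY1 match elsewhere in its window.
MRPL46: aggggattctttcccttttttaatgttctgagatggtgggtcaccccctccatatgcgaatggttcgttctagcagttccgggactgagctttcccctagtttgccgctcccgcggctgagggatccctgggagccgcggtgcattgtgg
MRPS11: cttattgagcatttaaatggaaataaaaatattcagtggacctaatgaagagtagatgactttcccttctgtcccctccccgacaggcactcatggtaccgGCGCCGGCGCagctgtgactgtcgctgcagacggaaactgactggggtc

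Mitochondrial ribosomal proteins with other symbols divided. AURKAIP1, a small subunit protein, was at 52.1, 50.5, 52.8 and 50.5 in DMSO and at 23.4, 20.6, 16.2 and 11.7 in SF153, a log2 difference of -1.51 ± 0.18 (limma adjusted p = 0.000187). GADD45GIP1, of the large subunit (-1.07), and CHCHD1, of the small subunit (-0.91), fell too. DAP3, the GTP-binding protein of the small subunit, was at 111.9, 101.4, 107.1 and 114.1 in DMSO and at 106.4, 109.4, 106.2 and 111.6 in SF153, and the groups overlapped throughout (log2 difference of -0.002 ± 0.06, limma adjusted p = 0.982). PTCD3, a pentatricopeptide protein that binds the incoming mRNA, was at 138.1 ± 20.4 and 137.7 ± 11.2 (log2 difference of 0.003 ± 0.11, limma adjusted p = 0.984). Without mitochondrially encoded and small RNA genes both were called higher, so their place relative to DMSO depends on the scaling.

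Among 28 mitoribosome assembly factors the median log2 difference was -0.28, and 11 fell while 2 rose, against 24.3% and 13.0% of all genes. The largest falls were those of the GTPase NOA1 (-0.996), RCC1L (-0.82), the RNA granule protein GRSF1 (-0.82) and MPV17L2 (-0.71). The GTPase MTG1 rose by 0.32 and the protease subunit SPG7, whose complex matures MRPL32, by 0.33. Without mitochondrially encoded and small RNA genes the counts were 5 lower and 9 higher of 28, against 13.8% and 34.9% of all genes, so under that scaling the shares were near those of all genes. Without DMSO 1.1, DMSO 1.2 or SF153 2.2 the number called higher was 1. In batch 1 and batch 2 alone the numbers called lower were 4 and 5, against 14.6% and 15.8% of all genes. MRPL32 itself fell (-1.21 ± 0.24).

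The median log2 difference of 17 mitochondrial translation factors was -0.23, and none was higher at an unadjusted p under 0.05. Of the 17, 6 fell and none was called higher, against 24.3% and 13.0% of all genes. They included SLIRP (-1.65) and its partner LRPPRC (-0.54), which hold mitochondrial mRNAs, the COX1 translation activator TACO1 (-1.06) and the elongation factor TUFM (-0.63), whereas the elongation factor GFM1 was at 45.9 ± 7.44 and 45.8 ± 5.81. Of 17 mitochondrial tRNA synthetases, 2 fell and none was called higher, against 24.3% and 13.0% of all genes. IARS2 (-1.21), the isoleucine enzyme, was among those that fell, and the median of the list was -0.16. Without mitochondrially encoded and small RNA genes, 4 translation factors were lower and 3 higher, and 2 synthetases were lower and 6 higher, against 13.8% and 34.9% of all genes.

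Of 11 genes of mitochondrial transcription and RNA processing, 6 fell and 1 rose (median -0.48), against 24.3% and 13.0% of all genes. Without mitochondrially encoded and small RNA genes, 4 were lower and 3 higher (median -0.14), against 13.8% and 34.9%. TFAM, which packages mitochondrial DNA and starts its transcription, fell (-1.29), as did the initiation factor TFB2M (-1.01) and the mitochondrial RNase P subunits HSD17B10 (-1.62) and TRMT10C (-0.78). The elongation factor TEFM rose by 0.68. These lists had annotated lengths of 2406 to 2729 bases at the median, longer than the members.

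The mRNAs that the mitochondrial ribosome translates were measured in the same libraries. Of the 13 mitochondrially encoded mRNAs, limma called none lower (0 also at an unadjusted p under 0.05), against 24.3% of all genes. It called 3 higher, against 13.0% of all genes: MT-ATP6, MT-ATP8 and MT-ND4L, by 0.64, 0.68 and 0.51. These calls rested on the libraries used: the count called higher was 7 with batch as a replicate block, 4 in batch 1 alone and 12 in batch 2 alone, and it was 7 without SF153 1.1, 5 without SF153 1.2 and 0 without SF153 2.1, SF153 2.2 or any 1 of the DMSO libraries. In batch 1 alone 1 of the 13 was called lower. Their median log2 difference was 0.36, and it was 0.08 in batch 1 and 0.69 in batch 2, where both SF153 libraries had the higher mitochondrially encoded share. The part of that share in the difference was not tested. The cytosolic ribosomal proteins, the other nuclear-encoded ribosomal set, fell in all 83 tested genes, with a median of -1.91. The fall was at least 2-fold in 82. The shares of all genes were 24.3% and 7.78%.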

How the data were processed

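The deposited values are a TPM-type signal per gene, which the authors' file labels call both CPM and TPM. CASAVA 1.8.2, STAR, Salmon, edgeR and GRCh38 are named without roles, per the submitters' processing notes. No source used here gives the authors' gene filter. The plan had assumed TPM, and its test was kept. The 4 SF153 and 4 DMSO libraries were compared by limma (version 3.58.1, R 4.3.3) after a log2(signal + 1) transform, with an intensity trend and no batch term, for all genes with a mean of at least 1. Adjustment was by Benjamini-Hochberg over these genes. The pseudocount of 1 understates changes of low genes. The test was checked on simulated data with independent noise in each library. Such data cannot show how the test behaves if libraries of the same treatment and batch are technical pairs. The members and companion lists were chosen with earlier results of these data known. Classes follow the ribosomal protein nomenclature, with MRPL55 and MRPS36 left out. Every member could be named, with library values for the 10 largest falls, the 6 highest differences and the 5 highest levels, and up to 4 called genes per companion list. DAP3, PTCD3, GFM1, SPG7, MTG1 and TEFM were named in addition, and 1 gene of the companion lists is not reported here. Lengths and gene positions are from GENCODE release 29, a gene's principal or longest transcript for the lengths. Promoter windows follow RefSeq starts, which can differ from the GENCODE positions. The batch number is the first number in the library names, and it pairs DMSO with SF153 libraries. Deviations of same-batch libraries of different treatment correlated at a mean r of 0.026, and those of different batch and treatment at -0.026. Across genes, the batch differences of DMSO and SF153 correlated at r = 0.067.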

Additional observations from a re-analysis of the deposited data

Results flagged for a closer look

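MRPL20 in SF153 2.1 had a signal of 40.97, apart from the other SF153 libraries of this gene, which were at 45.7, 45.8 and 46.3. The gap to the nearest library was 0.887 of the range of the group, above Dixon's 95% critical value for 4 samples. It was the only 1 of 38 group values examined, in the 19 members given by library, that stood apart in this way, and chance alone sets apart about 1 in 20.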

How the results depend on the processing

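Over 23 alternatives, between 50 and 66 members were called lower (66 with batch as a replicate block, which changed no call of a member, and 61 to 65 without 1 library), and the member median kept its sign. The median was -0.73 with a pseudocount of 5, -0.76 after quantile normalization, -0.62 without mitochondrially encoded and small RNA genes, and -0.76 without both SF153 libraries of batch 2, an alternative chosen after seeing the data. Members called higher numbered 2 after quantile normalization, 2 without mitochondrially encoded and small RNA genes, and 1 with the length trend removed. All genes called numbered 5785, and 3517 with libraries of a treatment and batch averaged, 3131 in batch 1 and 3315 in batch 2, fits with fewer libraries. Estimates turned above 0 for MRPL55 (0.011 after quantile normalization, 0.18 without mitochondrially encoded and small RNA genes, 0.044 without the length trend), MRPS18C (0.041, 0.17 and 0.0082), MRPS5 (0.029, 0.17 and 0.0045) and MRPL38 (0.024 and 0.18 under the first 2). MRPL20 turned to 0.068 without mitochondrially encoded and small RNA genes. MRPL38 was at 0.089 in batch 1, and without both SF153 libraries of batch 2 MRPL38 was at 0.059 and MRPS18C at 0.062. The cause of these moves was not tested. Read depth is unknown, so precision at low signal is given only by the spread of libraries.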
